A study of Mus musculus with 4 samples.

Results

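13_Novel is 1 of the 45 retinal ganglion cell types that the authors assigned to the cells of the mouse retina in their deposited table. Its members were taken as every cell whose assigned type in that table was 13_Novel, which gave 2794 of 131379 cells. The name carries the type's number and no marker gene. Retinal ganglion cells (RGCs) are the output neurons of the eye: they gather signals from bipolar and amacrine cells and send axons through the optic nerve to the brain. They fall into many types that differ in gene expression, dendrite shape and visual response. Cells of a single RGC type often keep a distance from each other, so that the type covers the retina as a mosaic.

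The study imaged transcripts with Xenium, which decodes single RNA molecules as fluorescent puncta inside tissue, on retinas of wild-type C57BL/6 mice that were not manipulated. The retinas were cut parallel to their surface into cryosections of 20 µm and probed for a custom panel of 300 genes, to map where each RGC subtype lies. All cells thus belong to 1 group, wild-type retina, whose age and sex are not given in the sources used here, and the comparisons lie within retinas. The table numbers 5 retinas, 41 sections and 8 slides, and the retina served as the replicate (n = 5). Whether each retina is from a different animal is not stated, and p-values cover only the spread from one of these retinas to another.

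All 45 types of the table are RGC types, so each share below is a share of RGCs, and every 13_Novel cell held at least 100 puncta. The retinas held 13127 to 41048 RGCs with 4048481 to 12879454 puncta, and median puncta per RGC ran from 285 to 326. Sections of more than 1 retina lie on 2 of the slides. Cell names found in more than 1 retina numbered 0. The sums for 13_Novel rested on 79726 puncta in retina 3, which had the fewest, and on 285571 in retina 2, which had the most. Levels below are puncta per cell, or puncta of a gene scaled to a total of 1000000 puncta over all panel genes (ppm), and they are compared between types or positions and never between genes, because the sources used here do not give the number of probes per gene.

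13_Novel was a type of middling abundance, with a similar share in each retina. It held 775 cells in retina 1, 905 in retina 2, 261 in retina 3, 552 in retina 4 and 301 in retina 5. Its share was 2.21% in retina 1, 2.20% in retina 2, 1.99% in retina 3, 1.99% in retina 4 and 2.09% in retina 5, a mean of 2.10% ± 0.11 (SD, n = 5). That mean put it at place 20 of the 45 types by abundance. Across the 27 sections with at least 1000 RGCs the share had a median of 2.12%. The lowest section had 19 such cells of 1296, or 1.47% (exact Clopper-Pearson 95% interval 0.885% to 2.28%), and the highest 42 of 1583, or 2.65% (1.92% to 3.57%). Of these 27 intervals, which cover counting error only, 26 held the overall share of 2.13%. The 5 sections without a 13_Novel cell were small, the largest with 134 RGCs.

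Of the 7 RGC markers on the panel, 3 were above the other types in all 5 retinas and 2 below. The low ones were Pou4f2, at 0.301 against 0.782 puncta per cell, and Isl1, at 1.27 against 1.60. Rbpms, an RNA-binding protein gene used as a general RGC marker, averaged 8.84 puncta per 13_Novel cell against 6.38 over the other types, and Slc17a6, the vesicular glutamate transporter of RGCs, 11.2 against 11.5. At least 1 punctum of Rbpms was found in 98.8% ± 0.383 (SD over 5 retinas) of the cells, and of Slc17a6 in 99.4% ± 0.438. The means over the other types were 94.2% and 96.6%.

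Relative to the other types, the leading genes of 13_Novel on the panel were Lypd1, Gabrg3, Isl2, Pou4f3, Lrrtm1 and Ppp1r17. Types may have been assigned from these same genes, so all values of genes between types are a description without a test. The size given is the log2 ratio of the level in ppm in 13_Novel to the mean of the other 44 types, averaged over the 5 retinas with its SD. The median of that ratio over all panel genes was -0.34. Of the 300 genes, 58 were above 0 in all 5 retinas, 175 were below 0 in all 5, 64 had both signs, and 3 had a retina without a punctum and got no mean. A ratio over 1 was reached by 13 genes and a ratio under -1 by 69.

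Lypd1, a membrane-anchored protein of the Ly6 family that modulates nicotinic acetylcholine receptors, had the highest ratio. It measured 3.79, 2.87, 2.80, 3.12 and 2.86 puncta per 13_Novel cell in retinas 1 to 5. Over the other types it measured 0.208, 0.166, 0.185, 0.172 and 0.196 puncta per cell in the same retinas. The groups were far apart in each retina, with a log2 ratio of 4.01 ± 0.14. Only 02_W3D1.2 came near, with 2.69 puncta per cell, and 04_FminiOFF followed at 0.468.

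Gabrg3 encodes the gamma-3 subunit of the GABA-A receptor. It measured 6.22, 5.85, 5.02, 5.24 and 5.67 puncta per 13_Novel cell in retinas 1 to 5, and 1.12, 0.982, 0.936, 0.901 and 0.952 over the other types. The ranges did not overlap, and the log2 ratio was 2.53 ± 0.06. 07_Novel had the next highest level with 4.75 puncta per cell, before 12_ooDS_NT with 4.05. Isl2, a LIM homeodomain transcription factor, measured 4.28, 3.12, 3.21, 3.80 and 3.11 puncta per 13_Novel cell, against 0.938, 0.688, 0.641, 0.733 and 0.688 over the other types. Its ratio was 2.29 ± 0.10. In 06_W3B it was as high, at 3.48 puncta per cell.

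Pou4f3, a POU-domain transcription factor also known as Brn3c, measured 1.89, 2.18, 1.63, 2.04 and 1.68 puncta per 13_Novel cell, against 0.368, 0.463, 0.378, 0.408 and 0.341 over the other types. Its ratio was 2.27 ± 0.07, and 35_Novel alone had a higher level in ppm. Lrrtm1, a leucine-rich repeat protein of synapses, was sparse at 0.929 ± 0.137 puncta per 13_Novel cell, yet its ratio reached 2.26 ± 0.18 because the other types averaged 0.194. Ppp1r17, a phosphatase inhibitor, had 2.13 ± 0.173 puncta per 13_Novel cell and a ratio of 2.01 ± 0.05. It stood at place 3 of the types, behind 02_W3D1.2 with 4.35 puncta per cell and 03_FminiON with 2.10, an order taken in ppm.

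A further 6 genes completed the upper end of the profile, each above the other types in all 5 retinas. They were the AP-2 transcription factor Tfap2d (log2 ratio 1.39 ± 0.18), the synaptic vesicle glycoprotein Sv2c (1.26 ± 0.05), the kainate receptor subunit Grik1 (1.15 ± 0.13), the metabotropic glutamate receptor Grm8 (1.06 ± 0.16), the transcription factor Onecut2 (1.04 ± 0.12) and the monoamine transporter Slc29a4 (1.04 ± 0.13). Of the panel genes, 7 had their highest level in ppm in 13_Novel. The lead over the next type was small in each: 1.00-fold for Isl2, 1.07-fold for Cacnb4, 1.08-fold for Lypd1, 1.09-fold for Gabrg3, 1.11-fold for Sv2c, 1.15-fold for Lrrtm1 and 1.23-fold for Kcnab2. For each of these genes another type thus came within 1.23-fold.

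At the low end stood, among others, 6 genes of the lists that mark other RGC subclasses (Opn4, Neurod2, Tbx20, Penk, Spp1 and Igf1). Opn4, which encodes the photopigment melanopsin of intrinsically photosensitive RGCs, measured 0.0194, 0.0298, 0.0268, 0.0145 and 0.0332 puncta per 13_Novel cell. Over the other types it measured 0.513, 0.433, 0.374, 0.408 and 0.308, so its ratio was -4.13 ± 0.72. Next came the neuronal transcription factor Neurod2 (-3.36 ± 0.61), the neuropeptide galanin, Gal (-2.94 ± 0.73), the T-box factor Tbx20 (-2.83 ± 0.38), the enkephalin precursor Penk (-2.71 ± 0.14) and the secreted protein Nell1 (-2.67 ± 0.23). The remaining named genes were the microglial membrane protein Tmem119 (-2.58 ± 1.21), osteopontin, Spp1 (-2.46 ± 0.23), the growth factor Igf1 (-2.44 ± 0.11) and the collagen chain Col9a1 (-2.37 ± 0.70). A low ratio was not always a low place among the types: a few types set the mean of the others, and 13_Novel stood at place 32 of 45 for Opn4, 21 for Tbx20, 28 for Spp1 and 44 for Neurod2.

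**Figure D1:**
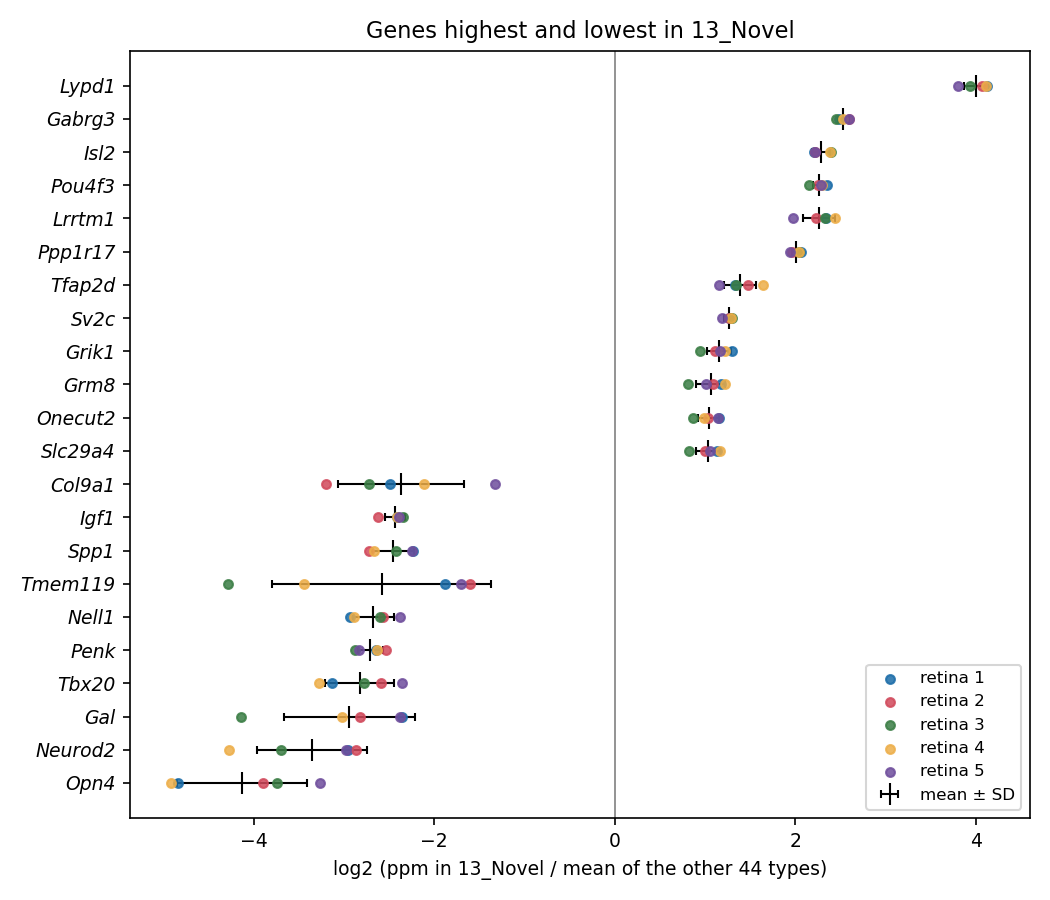
Log2 ratio of the level in ppm in 13_Novel to the mean of the other 44 types (horizontal axis) for the 12 highest and 10 lowest genes under the naming rule, with a coloured point for each of the 5 retinas and a black mark for mean ± SD. Lypd1 stands apart at 4.01, and the retinas spread most for sparse genes such as Tmem119 and Gal.

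Taken by subclass, most marker genes of the following RGC groups were below the mean of the other types, as were 175 of all 300 genes in all 5 retinas. A few high types can set that mean. Among the 45 types 13_Novel stood at place 17 for Foxp2 and at place 27 for Eomes and Prkcq. All 5 ipRGC genes were below the other types in all 5 retinas: Opn4, Tbx20, Igf1, the kinase Prkcq (-2.20 ± 0.23) and the T-box factor Eomes (-1.92 ± 0.18), with a list median of -2.44. Of the 6 alpha RGC genes 5 were below in all 5 retinas, with a median of -1.70, among them cochlin, the matrix protein encoded by Coch (-2.28 ± 0.30), the ETS factor Etv1 (-1.84 ± 0.10) and Igfbp2 (-1.56 ± 0.30). The neurofilament Nefh was level, at -0.04 ± 0.06. The 3 N-RGC genes Neurod2, Penk and S100b (-0.75 ± 0.16) were all below, with a median of -2.71, and so was Jam2 (-1.48 ± 0.14), the single T-RGC gene on the panel. Of the 3 Foxp2 RGC genes, Foxp2 (-1.69 ± 0.33) and Foxp1 (-0.76 ± 0.17) were below and Ppp1r17 above, with a median of -0.76.

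The W3 RGC list, named for small RGCs that respond to moving objects, had 3 of its 5 genes above the other types in all 5 retinas and a median of 2.01. These were Lypd1, Isl2 and Ppp1r17, while Penk and the zinc finger factor Zic1 (-1.93 ± 0.57) were below. Of the 3 direction-selective RGC genes, Gabrg3 and Tfap2d were above and the neuropeptide Cck (-1.50 ± 0.18) was below, with a median of 1.39. These lists are short and share members with each other, and the authors' name for 13_Novel places it in neither group.

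By function, 6 of 25 transcription factors were above the other types in all 5 retinas and 16 below, with a median of -0.76, beside 58 above and 175 below among all 300 genes. Beside the low Neurod2 and Tbx20, the LIM-only cofactor Lmo2 stood at -2.15 ± 0.47, while Isl2 and Pou4f3 were the high members. Of the neuropeptides and hormones 0 of 7 were above in all 5 retinas and 5 below, with a median of -1.97, while Npy (-0.11 ± 0.40) and Vip (-0.76 ± 1.39) had both signs. Their summed level was 0.586 to 0.705 puncta per 13_Novel cell over the retinas against 3.22 to 3.82 over the other types. Adhesion and matrix genes had 1 of 17 above and 15 below, with a median of -1.48. Cdh8, a cadherin, was at -2.36 ± 0.24, and the nerve-derived factor Ndnf at -2.21 ± 0.20. All 5 calcium-binding protein genes were below: Pvalb (-1.79 ± 0.23), Calb1 (-1.11 ± 0.16), S100b, Scgn (-0.47 ± 0.32) and Necab1 (-0.34 ± 0.22), with a median of -0.75.

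Ion channels and receptors lay closer to the other types. Of 30 potassium channel genes 6 were above and 17 below in all 5 retinas, with a median of -0.15. Kcnh1 was the lowest of them at -1.93 ± 0.32, the channel partners Kcnip3 and Kcnip2 were at -1.26 ± 0.20 and -1.15 ± 0.12, and Kcnab2, a beta subunit of potassium channels, was the highest at 0.78 ± 0.03. Of 9 sodium channel genes 6 were above and 3 below, with a median of 0.16, from the beta subunit Scn4b at -1.63 ± 0.28 to Scn7a at 0.90 ± 0.02. Of 16 calcium channel genes 8 were above and 7 below, with a median of 0.10, from Cacna1e at -1.49 ± 0.17 to the beta subunit Cacnb4 at 0.74 ± 0.06. Hcn2, a channel opened by hyperpolarization, was below in all 5, at -0.18 ± 0.04.

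Among 15 GABA and glycine receptor genes 2 were above and 8 below, with a median of -0.29. The members above were Gabrg3 and the glycine receptor subunit Glra2 (0.97 ± 0.10). Among 14 glutamate receptor genes 7 were above and 4 below, with a median of 0.16. Besides Grik1 and Grm8, the NMDA receptor subunit Grin3a (0.99 ± 0.07) and the AMPA receptor subunit Gria3 (0.97 ± 0.04) were above, and Grm5 was the lowest at -1.30 ± 0.24. Of 8 genes for loading and release of transmitter 2 were above and 4 below, with a median of -0.41. The synaptotagmin Syt6 was at -1.59 ± 0.23, the vesicular glutamate transporter Slc17a7 at -1.16 ± 0.14 and Rab3b at -1.09 ± 0.27.

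Markers of other retinal cells were measured in the same cells. Of the 7 RGC markers 3 were above the other types in all 5 retinas and 2 below, with a median of 0.00, the low ones being Pou4f2 (-1.38 ± 0.08) and Isl1 (-0.32 ± 0.11). Amacrine markers summed to 15.9 to 17.1 puncta per 13_Novel cell against 12.9 to 13.8 over the other types. Of these 14 genes 2 were above in all 5 retinas and 5 below. Much of the higher sum lay in Pax6, a transcription factor that RGCs express too, at 11.4 against 8.41 puncta per cell. The GABA synthesis enzyme Gad2, which defines inhibitory amacrine cells, was at 0.261 against 0.393.

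The sums for bipolar markers (1 of 12 above, 7 below) were 2.98 to 3.13 puncta per 13_Novel cell against 3.25 to 3.66, and for horizontal cell markers (1 of 6 above, 3 below) 3.08 to 3.38 against 4.88 to 5.30. Rod markers (0 of 3 above, 2 below) summed to 0.803 to 1.51 against 0.851 to 1.81, and Müller glia markers (0 of 5 above, 3 below) to 1.26 to 1.85 against 1.45 to 2.05. Both cone genes had mixed signs, at 0.0917 to 0.203 against 0.0916 to 0.158. Astrocyte markers (1 of 2 below) summed to 0.290 to 0.406 against 0.473 to 0.561, and the 2 microglia markers, both below, to 0.0268 to 0.0497 against 0.0887 to 0.153. Cdh5, the endothelial marker, was at -1.75 ± 0.30, and the 2 pericyte and smooth muscle markers had mixed signs, at 0.0332 to 0.153 against 0.0464 to 0.0779. The part these other cells have in the profile of 13_Novel was not tested.

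Most single 13_Novel cells carried Lypd1, Gabrg3 and Isl2 together. At least 1 punctum of Lypd1 was found in 87.3% ± 2.27 (SD over 5 retinas) of 13_Novel cells, of Gabrg3 in 95.0% ± 0.802 and of Isl2 in 87.5% ± 2.58. For background, the type with the lowest share of Lypd1 was 09_Tbr1_Novel with 5.04%, of Gabrg3 43_AlphaONS with 12.2% and of Isl2 35_Novel with 8.47%. The highest other type was 02_W3D1.2 with 86.7% for Lypd1, 07_Novel with 86.3% for Gabrg3 and 06_W3B with 89.1% for Isl2. For Isl2 that was above the share in 13_Novel. With each cell thinned to 100 puncta, so that depth is equal, the shares in 13_Novel were 60.4%, 79.7% and 60.7%, and the lowest of any type were 1.69%, 4.08% and 3.16%. The same highest other types then had 57.1%, 70.6% and 63.6%. Opn4 was found in 2.33% ± 0.745 of 13_Novel cells, against 1.32% in the lowest type, 29_Novel, and 78.0% in the highest, 40_M1dup. Thinned, its share was 0.783% in 13_Novel and 0.388% in the lowest type, 34_Novel.

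All 3 of Lypd1, Gabrg3 and Isl2 were found in 75.7% ± 4.21 of 13_Novel cells. The mean over the other types was 2.37%, and the highest of these was 02_W3D1.2 with 18.3%. In cells thinned to 100 puncta the shares were 31.2% ± 2.59 and 0.279%. Cells of the whole table with at least 1 punctum of each numbered 6383, of which 2146, or 33.6%, were 13_Novel. With at least 2 puncta of each, 1507 of the 2095 such cells of the whole table, or 71.9%, were 13_Novel. Lypd1 was missing from 332 members (11.9%), Gabrg3 from 137 (4.90%), Isl2 from 340 (12.2%) and all 3 from 17 (0.608%). In thinned cells the variance of the 6 leading genes between 13_Novel cells was 1.03 to 1.24 times their mean, where counting alone gives about 1. In the deposited counts it was 1.23 to 2.16 times the mean, and thinning itself moves the ratio towards 1.

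By its whole panel profile 13_Novel was most like 21_Tbr1_S2, 02_W3D1.2 and 11_Novel. Likeness was the Pearson correlation over the 300 genes of log2(ppm + 100), taken in each retina, and it describes types that share retinas, panel and depth. It averaged 0.927 ± 0.003 with 21_Tbr1_S2 (6339 cells), 0.925 ± 0.005 with 02_W3D1.2 (7249 cells), 0.918 ± 0.006 with 11_Novel (3568 cells) and 0.914 ± 0.007 with the fourth, 14_ooDS_Cck. The first 2 did not differ beyond their spread.

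Against 21_Tbr1_S2, 13_Novel was higher in Lypd1 (log2 ratio 4.72 ± 0.16), Tfap2d (3.31 ± 0.33), Lrrtm1 (3.18 ± 0.38), Pou4f3 (2.99 ± 0.17) and Ppp1r17 (2.97 ± 0.08). It was lower in Slitrk6 (-3.39 ± 0.38), a transmembrane protein of neurite growth, in Pvalb (-3.09 ± 0.27), Igf1 (-2.44 ± 0.17), Col9a1 (-2.22 ± 0.52) and the kinase Stk32a (-2.21 ± 0.22). Both types carried Gabrg3, at 5.60 puncta per cell in 13_Novel and 2.57 in 21_Tbr1_S2, and Isl2, at 3.50 and 2.19.

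02_W3D1.2 shared Lypd1, with 3.09 puncta per cell in 13_Novel and 2.69 there, a log2 ratio of 0.12 ± 0.11. The pair parted in Gabrg3 (3.84 ± 0.09, or 5.60 against 0.369 puncta per cell), Tfap2d (3.35 ± 0.34), Pou4f3 (3.02 ± 0.28), the protocadherin Pcdh11x (2.88 ± 0.18) and Scn7a (2.81 ± 0.16). Genes lower in 13_Novel included Grm5 (-2.61 ± 0.24), Tafa3 (-2.34 ± 0.17), the lipase Lpl (-2.18 ± 0.19) and Jam2 (-1.999 ± 0.10).

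Against 11_Novel, 13_Novel was higher in Lrrtm1 (3.75 ± 0.45), Lypd1 (3.65 ± 0.22), Tfap2d (3.55 ± 0.51), Pcdh11x (2.76 ± 0.20) and Grm8 (2.72 ± 0.28). The widest gap of any of these pairs was in Cacna1e, the pore subunit of R-type calcium channels, with 0.118 puncta per cell in 13_Novel and 5.42 in 11_Novel, a log2 ratio of -5.50 ± 0.23. Gal (-2.98 ± 0.54), the transcription factor Ebf3 (-2.68 ± 0.08), Pvalb (-2.46 ± 0.24) and Lrrn3 (-2.39 ± 0.29) followed. Isl2 was at 3.50 against 2.75 puncta per cell, a log2 ratio of 0.37 ± 0.12.

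**Figure D2:**
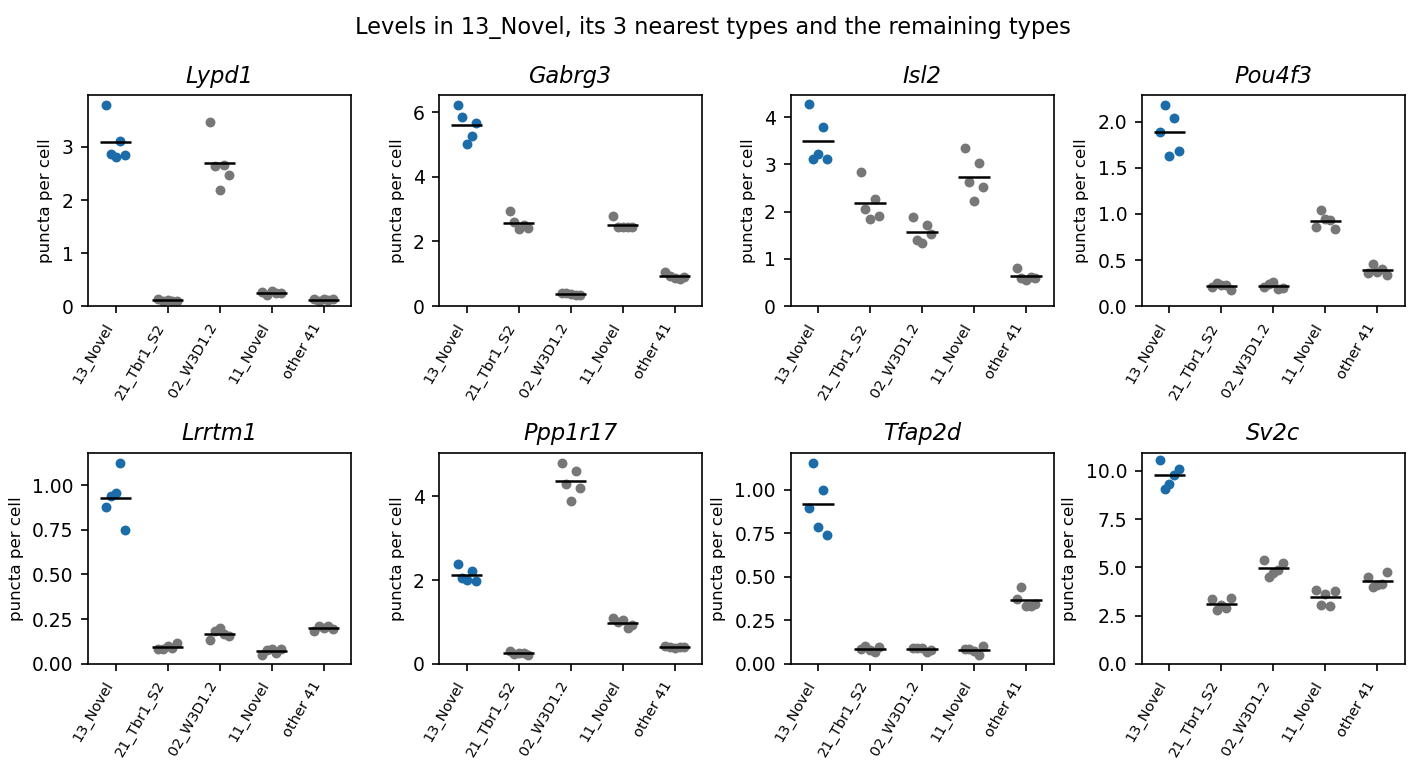
Puncta per cell (vertical axis, starting at 0) of the 8 genes with the highest ratio in 13_Novel, for 13_Novel, its 3 nearest types and the mean of the other 41 types, with a point per retina (n = 5) and a line at the mean. Lypd1 is shared with 02_W3D1.2 and Isl2 with 11_Novel and 21_Tbr1_S2, while Gabrg3 at 5.60 puncta per cell is above all of them.

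By cell volume 13_Novel stood at place 18 of the 45 types. The table gives a volume per cell, which equals that of an ellipsoid inside the cell's bounding box and has no stated unit. Median volumes were 610, 621, 654, 555 and 668 in retinas 1 to 5, against 595, 597, 643, 529 and 622 over all RGCs, and the tenth and ninetieth percentiles averaged 333 and 972. Against the mean of the other types the log2 difference of the medians was -0.004 ± 0.022 (SE), which limma did not separate from 0 (adjusted p = 0.85). In this fit 71.1% of the types differed from the others. Set against each other type in turn, 13_Novel was larger than 18 and smaller than 13 of 44, which is 70.5% of the pairs past the threshold. It was larger than 02_W3D1.2 by 0.14 ± 0.02 (adjusted p = 4.1e-04) and than 21_Tbr1_S2 by 0.13 ± 0.03 (adjusted p = 0.0036), each in 5 of 5 retinas. The difference from 11_Novel was 0.03 ± 0.02 (adjusted p = 0.23), though 13_Novel was the larger in 5 of 5 retinas there too. These pairwise comparisons were chosen after the data were seen.

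Median puncta per cell, read as depth, were 348, 309, 291, 318 and 322 in 13_Novel. The log2 difference from the other types was 0.037 ± 0.023 (SE, limma adjusted p = 0.18), where 68.9% of types differed. Without retina 3 it was 0.052 with an adjusted p of 0.037, so this call turned on that retina. Outlines that the cell names mark as joined made up 8.90% ± 2.69 of 13_Novel cells and 10.5% ± 1.38 of other RGCs.

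Around a 13_Novel cell, other cells of its type were rarer than further away. Among the 20 RGCs nearest to a 13_Novel cell, 13_Novel made up 0.665%, 0.796%, 1.32%, 0.471% and 0.781% in retinas 1 to 5. Among the RGCs ranked beyond 100 and up to 200 by distance it made up 2.36%, 2.18%, 2.04%, 2.15% and 2.25%. The near share was below the far share in every retina, with log2 ratios of -1.82, -1.45, -0.61, -2.18 and -1.51. The mean was -1.52 ± 0.22 (SE; limma, adjusted p = 0.0011), beside 77.8% of types past the threshold, and the exact permutation test by sign flips (two-sided) had p = 0.0625, the smallest that 5 retinas allow. Retina 3 stood highest, and without it the mean was -1.74. With the 10 nearest RGCs the log2 ratio was -1.62 and with the 50 nearest -0.82. Leaving out joined outlines gave -1.41.

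In this measure 13_Novel ranked 9 from the lowest of 45 types. Against the mean of the other types the log2 ratio was lower by 0.67 ± 0.17 (SE; difference -0.67, limma adjusted p = 0.013, 66.7% of types past the threshold), and lower in 5 of 5 retinas, at -0.83, -0.59, -0.08, -1.26 and -0.61. By an exact sign-flip permutation test this difference had p = 0.0625 too. Set against each other type it was lower than 24 and higher than 0 of 44, or 54.5% of pairs past the threshold. It was below 21_Tbr1_S2 by a log2 difference of -1.09 ± 0.30 (adjusted p = 0.0016), in 5 of 5 retinas, and below 02_W3D1.2 by -0.81 ± 0.30 (adjusted p = 0.018), in 4 of 5. From 11_Novel, at -1.45, it differed by -0.07 ± 0.30 (adjusted p = 0.84), though it was lower there in 4 of 5 retinas too. In these pairwise fits limma pooled the spread over all pairs into a common SE, and every pair used the same 13_Novel values. The pairs are thus not independent, and their SE and p-values do not measure the spread of a single pair over the retinas. The comparison against other types was added after the data were seen.

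A count of pairs by distance gave the reach of the gap, in the table's position units, which are not stated. Pairs of 13_Novel cells found, divided by those expected from the type's share of its section, averaged 0.41 ± 0.21 (SD over 5 retinas) up to 20 units, 0.32 ± 0.16 from 20 to 40 and 0.61 ± 0.08 from 40 to 60. From 60 to 80 units the ratio was 1.04 ± 0.13, from 80 to 100 it was 1.19 ± 0.11, and further bins up to 200 lay between 1.03 and 1.10. In all, 206 pairs were found from 20 to 40 units where 779 were expected. These counts took each pair from both of its cells. The retinas spread most in the first bins, where retina 3 had 0.75 and 0.60 and the others 0.22 to 0.44 and 0.20 to 0.28.

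Inside the regions that the table names in some sections, which held 18 to 114 13_Novel cells per retina, the ratio fell to 0.12 ± 0.11 from 20 to 40 units and was 1.15 ± 0.30 from 60 to 80. There the near to far log2 ratio was -2.52 (limma adjusted p = 0.0018). The distance to the nearest 13_Novel cell of the same section had a median of 77.3, 75.9, 75.4, 72.2 and 74.3 units in retinas 1 to 5 and was below 40 units for 268 cells (9.59%). That share was 7.23% in retina 1 and 15.7% in retina 3.

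The 3 most similar types showed no such deficit around 13_Novel cells. Cells of 02_W3D1.2 were found at 1.12 ± 0.04 times their section share within 20 units of a 13_Novel cell and at 1.10 ± 0.08 from 20 to 40. For 21_Tbr1_S2 the ratios were 1.03 ± 0.04 and 0.95 ± 0.06, and for 11_Novel 1.23 ± 0.13 and 1.08 ± 0.07. In the named regions 11_Novel had 1.11 ± 0.23 within 20 units. These ratios by distance are given as a description.

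**Figure D3:**
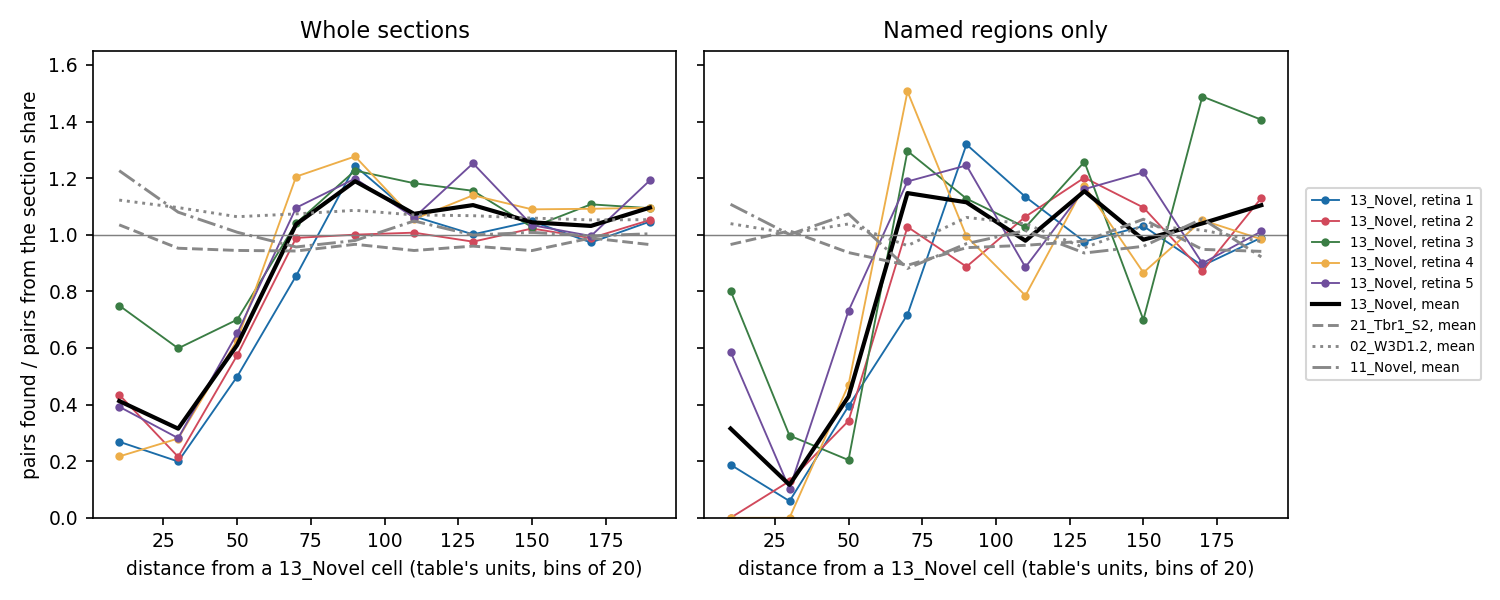
Pairs found divided by pairs expected from the section share (vertical axis) against the distance from a 13_Novel cell in bins of 20 position units, over whole sections (left) and named regions (right). Coloured lines are 13_Novel in each of 5 retinas, the black line their mean and grey lines the 3 nearest types. Over whole sections the mean of 13_Novel starts at 0.41, passes 1 between 60 and 80 units and then lies between 1.03 and 1.19. The grey lines run from 0.94 to 1.23 there. In named regions the mean of 13_Novel starts at 0.32.

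The share of 13_Novel was compared between positions, which the authors scaled to a circle. A scaled radius below 0.5 was taken as centre. Central shares were 2.19%, 2.33%, 1.99%, 2.35% and 2.26% in retinas 1 to 5, and peripheral shares 2.21%, 2.14%, 1.98%, 1.81% and 1.89%. The periphery was lower in 4 of 5 retinas, with means of 2.23% ± 0.14 and 2.01% ± 0.17 (SD). The log2 change was -0.15 ± 0.07 (SE) and did not pass in edgeR's quasi-likelihood test (adjusted p = 0.085), while 42.2% of the 45 types did. With the split at 0.7 it did pass, at -0.20 (adjusted p = 0.023), and with sections as blocks, at -0.14 (adjusted p = 0.048). In rings of 0.2 from the centre outwards the mean share was 2.33%, 2.24%, 2.15%, 2.07% and, at the edge, 1.67% ± 0.34, the last from 459 cells.

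The other axes have no stated anatomical direction. Across X the share was 2.13% ± 0.12 on the negative and 2.07% ± 0.14 on the positive side, a log2 change of -0.04 ± 0.05 (edgeR adjusted p = 0.62, with 28.9% of types past the threshold). Across Y it was 2.06% ± 0.21 and 2.17% ± 0.18, a log2 change of 0.08 ± 0.09 (adjusted p = 0.50, with 0% of types past the threshold). Retinas 1 to 4 had the higher share at positive Y and retina 5 the lower.

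**Figure D4:**
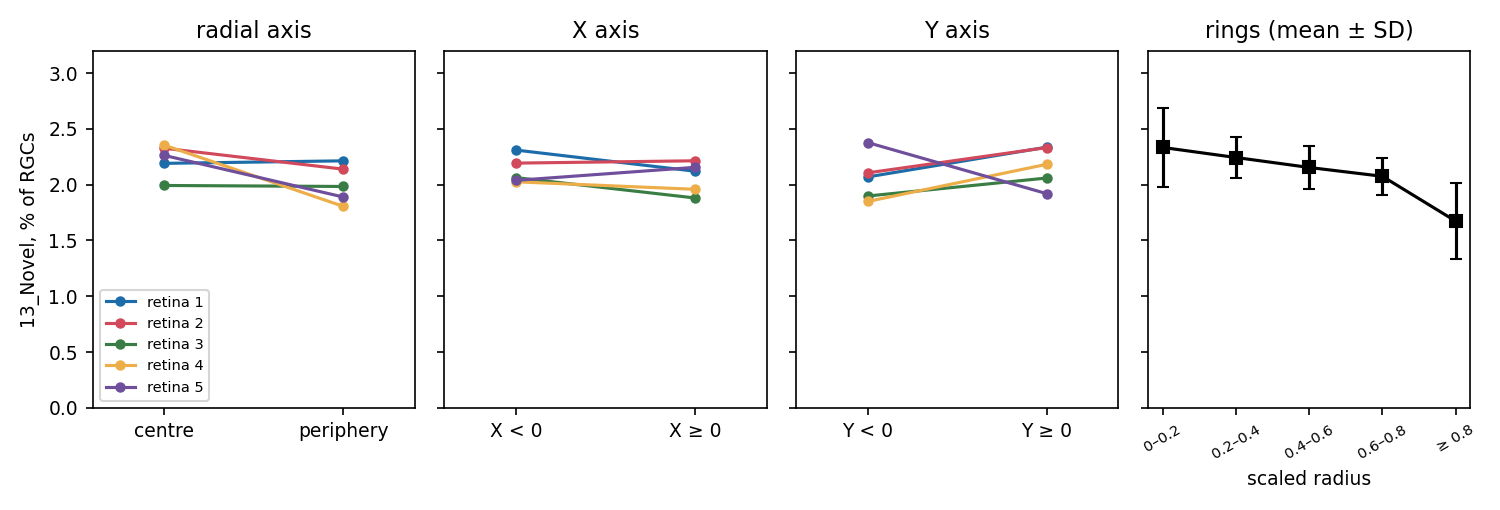
Share of 13_Novel among RGCs in percent (vertical axis, starting at 0) on both sides of the radial, X and Y axes, with a line per retina, and its mean ± SD over 5 retinas in rings of scaled radius. Retinas 4 and 5 fall most towards the periphery, retina 5 alone falls along Y, and the outermost ring is lowest at 1.67%.

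No change of 13_Novel cell volume with position passed the test. The log2 change of the median volume was -0.05 ± 0.07 (SE) from centre to periphery (limma adjusted p = 0.99, with 2.33% of 43 types past the threshold), 0.08 ± 0.05 across X (adjusted p = 0.41) and 0.003 ± 0.070 across Y (adjusted p = 0.99), the last 2 with 0% of types past the threshold. The radial change was -0.30 in retina 3 and -0.05 to 0.07 in the others, and without retina 3 the mean was 0.013.

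Within 13_Novel, 10 of 256 genes tested changed between centre and periphery in edgeR's quasi-likelihood test with the retina as a block, 7 higher and 3 lower in the periphery, which is 3.91% of its genes. Over all types tested 2.2% of type-gene pairs passed, and 13_Novel had the sixth most calls of 37 types, whose median was 4. Values shown are ppm of the type's own puncta. The test itself ran on the summed puncta counts with TMM scaling, and adjustment was over all type-gene pairs of the axis.

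Cxcl14, a chemokine, fell most clearly. It measured 4546, 4311, 4885, 4199 and 4396 ppm in central and 2917, 3171, 3118, 2847 and 2963 in peripheral 13_Novel cells of retinas 1 to 5. The sides did not overlap, and the log2 change was -0.53 ± 0.07 (SE, adjusted p = 8.7e-05). Over the other RGCs Cxcl14 changed by -0.24 ± 0.15 (SD) and was higher in 0 of 5 retinas. The difference between 13_Novel and the other RGCs was -0.27 ± 0.08 and did not pass (edgeR adjusted p = 0.18). Gad1, the enzyme that makes GABA and a marker of amacrine cells, fell by 0.52 ± 0.12 on the log2 scale (adjusted p = 0.013), with overlapping ranges of 1964 to 3425 ppm in the centre and 1372 to 2395 in the periphery. Over the other RGCs Gad1 changed by -0.21 ± 0.28 (SD), and the difference was -0.28 ± 0.16 (edgeR adjusted p = 0.54). Pcdh8, a protocadherin, fell by 0.28 ± 0.08 (adjusted p = 0.047). Each of the 3 was lower in 5 of 5 retinas.

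Anxa2, a calcium-dependent membrane-binding protein, rose from 3290, 3224, 2899, 2714 and 3513 to 4446, 3766, 3592, 3709 and 3759 ppm. The sides did not overlap, with a log2 change of 0.35 ± 0.08 (adjusted p = 0.014). In the other 36 types tested Anxa2 passed as higher in 0 and as lower in 3. The test of the difference between 13_Novel and all other RGCs gave a log2 value of 0.43 ± 0.10 for it, which did not pass (edgeR adjusted p = 0.074). With the split at 0.7 the difference was 0.53 and passed (adjusted p = 0.022).

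The remaining genes that rose in 5 of 5 retinas were Gngt1 (0.39 ± 0.10, adjusted p = 0.028), a rod transducin subunit, Fxyd6 (0.37 ± 0.09, adjusted p = 0.019), a regulator of the sodium pump, and Gas7 (0.36 ± 0.07, adjusted p = 0.0059). With them rose the matrix protein gene Sparc (0.28 ± 0.07, adjusted p = 0.025) and Spc25 (0.28 ± 0.06, adjusted p = 0.0090), a kinetochore gene. Vgf, a secreted neuropeptide precursor, passed at 0.45 ± 0.12 (adjusted p = 0.033) with 4 of 5 retinas higher. It lies outside the rule for named genes and is given because the count is complete with it. Most of the 10 genes passed in other types as well. Fxyd6 passed as higher in 25 of the other 36 types, Spc25 in 16, Gngt1 in 10, Sparc in 8, Gas7 in 3 and Vgf in 1. Pcdh8 passed as lower in 6, Cxcl14 in 2, and Gad1 and Sparc in 1 each.

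How many genes passed rested on single retinas and on the block. Without retina 5 it was 6, without the retina as a block 1, and with DESeq2 4, each time all among the 10. Without retina 4 it was 2, of which 1 was among the 10, the other being Nfix. Of the 12 genes that passed without retina 1, 7 were among the 10, as were 6 of 9 without retina 2 and 7 of 8 without retina 3. Cxcl14 passed in 10 of 10 alternatives, Spc25 in 8, Gad1 and Gas7 in 7, and the direction of each of the 10 genes held in all alternatives.

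Summed markers of other cells were also compared along this axis, without a test. In 13_Novel cells the summed rod markers rose from a mean of 3071 to 3865 ppm (higher in 4 of 5 retinas), cone genes from 287 to 450 (5 of 5) and Müller glia markers from 4285 to 5023 (4 of 5). Amacrine markers went from 52038 to 50806 (higher in 1 of 5) and the pair of microglia markers, Tmem119 and Aif1, from 187 to 94.4 (1 of 5), of which Tmem119 alone went from 104 to 18.3. Bipolar markers went from 9643 to 9600 (higher in 2 of 5), horizontal cell markers from 9946 to 10208 (3 of 5) and astrocyte markers from 1076 to 966 (3 of 5). Cdh5 went from 158 to 205 (4 of 5) and pericyte and smooth muscle markers from 130 to 256 (3 of 5). The part of other cells in the changes of Gngt1, Gad1 and the other genes was not tested. Of the functional lists, adhesion and matrix had 1 gene higher (Sparc) and 1 lower (Pcdh8) of 15 tested. Potassium, sodium and calcium channels, glutamate receptors, GABA and glycine receptors and transcription factors had 0 of 30, 9, 15, 13, 12 and 23 past the threshold.

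**Figure D5:**
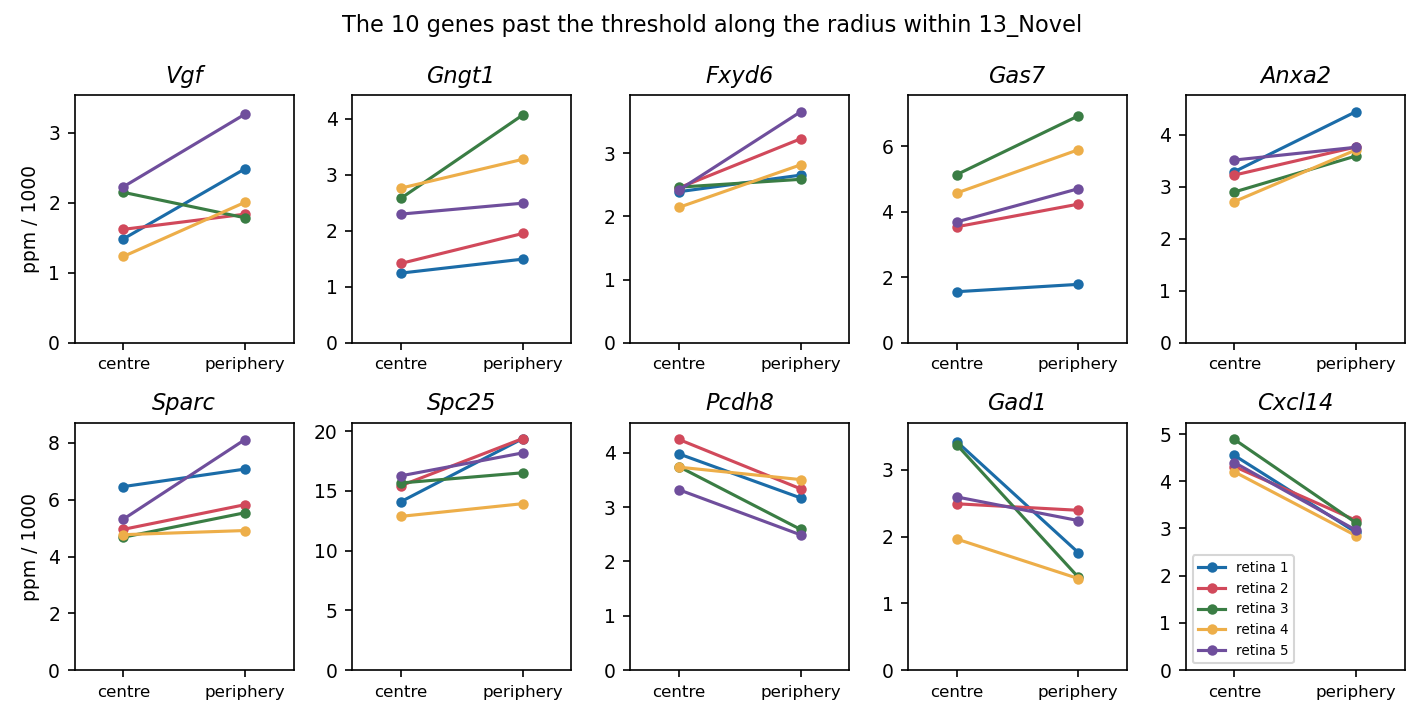
Level in 13_Novel cells of the 10 genes past the threshold between centre and periphery, as ppm divided by 1000 (vertical axes, each starting at 0), with a line per retina (n = 5). All lines fall for Cxcl14, Gad1 and Pcdh8, and all rise for the others except Vgf, where retina 3 falls.

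Across X, 1 of 265 genes changed within 13_Novel (0.377%; over all types 0.282% of pairs). Ppp1r17, one of the type's leading genes, measured 7625, 7291, 7025, 7701 and 6849 ppm at negative X and 6072, 5873, 5793, 6399 and 5547 at positive X. The sides did not overlap, and the log2 change was -0.30 ± 0.04 (edgeR adjusted p = 0.0074). Over the other RGCs Ppp1r17 changed by -0.23 ± 0.07 (SD), and the difference was -0.05 ± 0.07 (adjusted p = 0.91). Its call was lost without retina 1, without the retina as a block and with sections as blocks, and the count of genes was 2 without retina 2, 3 without retina 3 and 5 without retina 5. Across Y 0 of 263 genes passed (0%; 37 at an unadjusted p under 0.05), and DESeq2 called 1, Vgf, as many as passed without retina 5.

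Set against all other RGCs, 1 of 300 genes changed differently along the radius in 13_Novel (0.333%). Tmem119, a microglial gene, measured 209, 125, 23, 75 and 88 ppm in central 13_Novel cells of retinas 1 to 5 and 24, 33, 0, 9 and 25 in the periphery. The difference in log2 change from the other RGCs was -2.54 ± 0.42 (edgeR adjusted p = 0.0033). These are 38 puncta in the centre and 13 in the periphery, about 0.0347 and 0.0060 per cell, so few cells carry the result. Tmem119 was too sparse to pass the count filter within 13_Novel and was not among the genes tested there. It entered this comparison only because the filter also took in the counts of the other RGCs. The call is thus no support for a change in 13_Novel. Without retina 2 the number of genes was 2. Tmem119 did not pass without retina 1 (adjusted p = 0.058), with the split at 0.7 (0.23) or without the retina as a block (0.074). Across X and Y 0 of 300 genes differed (0%; 19 at an unadjusted p under 0.05 on each axis), and DESeq2 called 0 and 5, the latter Calb1, Serpine2, Cbln4, Grin3a and Prph.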

How the data were processed

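The authors imaged 300 genes by Xenium and deposited whole-number puncta counts per cell with the retina, position, volume and type of each cell, per the file headers. Segmentation, cell filters and typing are not given in the sources used here. The 4 deposited samples are slide pairs that no label ties to the table's slides.

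Counts were used as deposited and summed per type, retina and side. Cell shares and genes along axes were fitted with edgeR 4.0.16 (quasi-likelihood, retina as block; TMM and filterByExpr for genes, sums of at least 50 cells), volume, puncta and spacing with limma 3.58.1, all with Benjamini-Hochberg adjustment and a threshold of 0.05. DESeq2 1.42.0 was the other tool, in R 4.3.3. Spacing added 0.5 to near and far counts and used sections of more than 200 cells. Fits were tested on simulated data.

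Members and lists were chosen with earlier results of these data known. Named genes were the 12 highest and 10 lowest with 1 sign in all 5 retinas and at least 100 puncta, 5 each way against each near type, those past the threshold along an axis, members of lists of up to 5 genes and up to 4 of longer lists. Pax6, Gad2, Vgf and the genes with their highest level in 13_Novel or at a list's upper end were named after their values were seen. Sst, Gabra3 and Gngt2 had a retina at 0 and got no mean. Distance bins, named regions and joined outlines were added after the data were seen. Some genes under the rule are not reported here.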

Additional observations from a re-analysis of the deposited data

Results flagged for a closer look

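In 4 of 50 sets of 5 retina values tested, 1 retina lay far from the other 4 by Dixon's test, which chance does in about 1 of 20. The share of 13_Novel across Y had a log2 change of -0.31 in retina 5, where the other retinas had 0.12 to 0.24. The volume change across Y was 0.26 in retina 1 and -0.13 to -0.02 in the others. For Sv2c the log2 ratio to the other types was 1.18 in retina 5 and 1.27 to 1.30 in the others, and for Igf1 it was -2.62 in retina 2 and -2.42 to -2.34 in the others. Tmem119 was called as changing differently from centre to periphery in 13_Novel than in the other RGCs, by a log2 difference of -2.54. That rests on 38 and 13 puncta, and the gene passed the count filter only through the other RGCs.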

How the results depend on the processing

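The share from centre to periphery passed with sections as blocks (-0.14) and with the split at 0.7 (-0.20). Genes within 13_Novel called along the radius, 10 as reported, were 18 when adjusted over its own genes alone, 4 with DESeq2, 1 without the retina as a replicate block and 2 to 12 with a retina left out. The split at 0.7 gave no value for them, since some sums held under 50 cells. Across X, 1 as reported, they were 4, 1, 0 and 0 to 5 under the same changes and 0 with sections as blocks. Across Y, 0 as reported, they were 1 with DESeq2, 1 with sections as blocks and 0 to 1 with a retina left out. Genes that changed differently from the other RGCs were, along the radius, 2 with DESeq2, 0 without the replicate block and 0 to 2 with a retina left out. With the split at 0.7 it was 1, Anxa2 in place of Tmem119. Across Y there were 5 with DESeq2. Volume against other types turned sign at 0.012 without joined outlines and ran from -0.019 to 0.0078 with a retina left out. Volume ran from -0.080 to 0.013 along the radius and -0.061 to 0.036 across Y, and puncta from 0.028 to 0.052, or -0.0012 by the mean of log2 values. None of these volume values passed. The spacing values of -1.52 and, against other types, -0.67 cannot pass the exact sign-flip test with 5 retinas, and in named regions the latter was -1.19 and did not pass (adjusted p = 0.075). With a pseudocount of 10 the most similar type was 02_W3D1.2, at 0.934. Of the 22 named marker genes under 7 settings, 13 of 154 values moved by over 1 SD and 0 reversed. The 11 genes along axes lost their call in 43 of 110 cases and reversed in 0. The cause of these shifts was not tested. Medians of 291 to 348 puncta per cell leave low genes at 0 or 1 punctum, so counts under about 100 puncta, as for Tmem119, are imprecise.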
